A study of Caenorhabditis elegans with 2 samples.

Results

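The regions described here are autosomal peaks of the transcription factor CEH-34 that lie in promoters serving genes in 1 direction only. CEH-34 occupancy in the nematode Caenorhabditis elegans was mapped by chromatin immunoprecipitation followed by sequencing (ChIP-seq), and each region is a peak whose summit, its highest point, lay within 1000 bp upstream of annotated 5′ ends of coding transcripts on a single strand. Summits within 200 bp of a tRNA, snRNA or snoRNA gene were not counted. Of the 1942 autosomal peaks that passed the authors' reproducibility threshold, 621 met this definition (31.98%, 95% Wilson interval 29.9 to 34.1). The other 1321 autosomal peaks comprised 320 in divergent promoters, which have 5′ ends on both strands within the same distance, 444 between genes and away from any promoter, 326 in introns, 54 in exons and 177 beside structural RNA genes.

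The worms were hermaphrodites of strain OP524, with the genotype unc-119(tm4063) III and the integrated transgene wgIs524, which expresses CEH-34 carrying GFP and FLAG at its C-terminus. Chromatin of whole late embryos, taken 3.5 hours after synchronisation by egg bleaching, was sonicated and precipitated with an antibody against GFP. There was 1 group of 2 biological replicates and no second condition, so all comparisons are between classes of peaks within the lists, and p-values describe these lists and not variation between animals. The tagged protein came from the transgene, whole embryos mix all cell types, and the data do not tell in which cells a region was occupied. A control experiment named in the labels was not used here.

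CEH-34 is a homeodomain protein of the sine oculis family, a group that acts with Eyes absent proteins. In this animal CEH-34 itself is known for specifying the neurons of the pharynx, the feeding organ. Genes are densely packed in the C. elegans genome. Many follow each other head to tail on 1 strand, some of them in operons, and many transcripts receive a spliced leader that replaces their original start, so that an annotated 5′ end is often not the site where transcription begins. A promoter with genes on 1 side only gives each peak an orientation, and sequences can be read on the strand of the gene.

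The strongest regions are shown first, so that the sequences behind the highest signals can be read. Each sequence runs from 50 bp before to 50 bp after the summit on the ce11 build, from the RefSeq sequence of the assembly WBcel235, written 5′ to 3′ on the strand of the downstream gene, and none overlaps an annotated coding-transcript exon. The first set holds the 6 strongest regions found in both replicates, all on chromosomes III to V. Capitals mark the GA repeat, which is GAGAGA or its reverse complement TCTCTC. The region of K12H4.5 was the only one of these 6 with that repeat.
M01F1.9, chrIII:3499991-3500091, minus strand: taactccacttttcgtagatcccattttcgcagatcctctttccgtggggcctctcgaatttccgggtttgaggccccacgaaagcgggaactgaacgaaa
K12H4.5, chrIII:8043912-8044012, plus strand: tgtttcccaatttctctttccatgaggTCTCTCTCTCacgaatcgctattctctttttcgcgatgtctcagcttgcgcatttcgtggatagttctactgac
rpl-3, chrIII:3867528-3867628, plus strand: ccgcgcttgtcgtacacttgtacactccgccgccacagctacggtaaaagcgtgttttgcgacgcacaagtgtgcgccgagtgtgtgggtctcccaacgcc
tos-1, chrV:9344229-9344329, minus strand: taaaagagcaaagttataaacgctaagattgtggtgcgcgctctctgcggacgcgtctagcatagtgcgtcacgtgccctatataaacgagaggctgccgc
eel-1, chrIV:3050613-3050713, minus strand: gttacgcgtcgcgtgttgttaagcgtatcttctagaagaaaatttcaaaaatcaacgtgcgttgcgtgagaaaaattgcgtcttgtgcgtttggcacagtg
Y39E4B.6, chrIII:13070641-13070741, plus strand: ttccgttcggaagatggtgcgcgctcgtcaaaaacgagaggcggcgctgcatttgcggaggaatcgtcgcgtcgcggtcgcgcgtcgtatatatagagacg

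The next 3 strongest regions with the GA repeat on chromosomes II to V, chosen after their values were seen, show the orientation that most such regions had, with the pyrimidine run TCTCTC on the strand of the gene. They lie upstream of hsp-1, which encodes the constitutive Hsp70 chaperone, of unc-76, an axon outgrowth gene, and of hil-7, a linker histone gene. The window of unc-76 held the repeat in both orientations.
hsp-1, chrIV:17278546-17278646, plus strand: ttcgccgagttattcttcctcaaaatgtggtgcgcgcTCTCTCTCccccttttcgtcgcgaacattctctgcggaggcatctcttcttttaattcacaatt
unc-76, chrV:15071361-15071461, plus strand: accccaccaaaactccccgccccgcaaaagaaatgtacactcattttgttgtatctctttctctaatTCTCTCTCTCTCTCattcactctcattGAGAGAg
hil-7, chrIV:6645983-6646083, plus strand: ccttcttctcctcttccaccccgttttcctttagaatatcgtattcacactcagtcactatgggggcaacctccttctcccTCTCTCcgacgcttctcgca

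The core sequence known for sine oculis proteins, TGATAC or its reverse complement GTATCA, was rare, and the 4 strongest regions that held it on chromosomes II to V are shown with the core in capitals. They lie upstream of the ribosomal protein gene rpl-35, of vig-1, whose product belongs to the RNA-induced silencing complex, of F28F9.2 and of F42H10.6. In the window of F28F9.2 the core overlaps the MEF3-type site TCAGGTT, a longer site described for vertebrate members of the sine oculis family.
rpl-35, chrIII:7854640-7854740, plus strand: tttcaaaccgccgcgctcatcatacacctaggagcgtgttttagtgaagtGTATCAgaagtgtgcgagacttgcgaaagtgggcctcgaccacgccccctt
vig-1, chrII:1320567-1320667, plus strand: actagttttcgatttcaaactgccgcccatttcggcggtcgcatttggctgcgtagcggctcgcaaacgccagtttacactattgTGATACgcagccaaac
F28F9.2, chrIV:3838862-3838962, plus strand: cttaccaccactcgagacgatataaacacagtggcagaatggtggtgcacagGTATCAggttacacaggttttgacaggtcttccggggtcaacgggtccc
F42H10.6, chrIII:8481298-8481398, minus strand: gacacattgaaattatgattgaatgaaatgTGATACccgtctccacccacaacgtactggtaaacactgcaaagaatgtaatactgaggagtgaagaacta

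The signal of a peak is the authors' own height for it, on a scale set per list. In the pooled list, the signal of the 621 regions ranged from 76.5 to 1522 with a median of 114 and quartiles of 91.5 and 156. Few regions were far above the rest, since 5 exceeded 500, 18 exceeded 300 and 82 exceeded 200. Where both replicates had a summit within 100 bp, the pooled signal was close to the sum of the replicates' signals (median ratio 1.00, 5th to 95th percentile 0.948 to 1.10).

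The strongest region, with a signal of 1522 in the pooled list, had 672 in replicate 1 and 852 in replicate 2. Its summit lay 984 bp upstream of M01F1.9, near the outer limit of the definition, and in an intron of the neighbouring gene M01F1.8 on the same strand. The region of K12H4.5 had 754 in replicate 1 and 768 in replicate 2, 525 bp upstream of the gene. At rpl-3, which encodes a protein of the large ribosomal subunit, the signal was 426 in replicate 1 and 429.8 in replicate 2, 276 bp from the 5′ end. These 3 regions stood above all others in both replicates, and at the last of them the replicates differed least.

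The tos-1 region, 76 bp upstream of a gene named for its splicing regulation, had 231 in replicate 1 and 339 in replicate 2. Upstream of eel-1, which encodes a HECT-type ubiquitin ligase, 2 summits ranked among the 20 strongest, at 559 bp (244 in replicate 1 and 263 in replicate 2) and at 772 bp (152 and 183). Y39E4B.6 had 219.8 in replicate 1 and 274 in replicate 2. Replicate 2 was the higher at all of these summits. Across the 592 regions with a summit in both replicates, replicate 2 was higher by a median factor of 1.13, and the 2 lists are not on a scale shown to be common.

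The remaining regions among the 20 strongest included those of cdc-48.1, which encodes an AAA ATPase of protein degradation (241 in replicate 1 and 221 in replicate 2), hsp-1 (171 and 223), the inner nuclear membrane protein gene lem-2 (184 and 176), the Hsp70 cochaperone gene bag-1 (189.6 and 154), the small ribosomal subunit genes rps-24 (158 and 174) and rps-28 (144 and 167), and cox-5B, which encodes a subunit of cytochrome c oxidase (126 and 181). The neuronal gene unc-76 was also among them, with 177 in replicate 1 and 175 in replicate 2, as were rpl-35, calm-1, hil-7, T28B8.1 and W01D2.3. Of these 20 summits, 3 had windows over 50% soft-masked as repeats in the RefSeq sequence. They were both eel-1 summits, at 100% and 68.3% of bases, and the rps-24 summit, at 58.4%. Over all 621 regions, 42 windows (6.76%) were masked to that extent, against 1389 of the 5349 candidates of the same promoter class that did not pass (26.0%).

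Both replicates had a candidate summit within 100 bp of 592 of the 621 regions (95.3%, 93.4 to 96.7), with a median of 24 bp between the 2 replicates' summits. Since the thresholded list was called on both replicates together, this share describes the list. In divergent promoters the share was 311 of 320 (97.2%; two-sided Fisher's exact test, odds ratio 0.591 with adjusted p = 0.442) and between genes 424 of 444 (95.5%; odds ratio 0.963, adjusted p = 1). Over the 592 regions the replicates' log2 signals were related with Pearson's r = 0.727 and Spearman's rho = 0.642, a description over peaks that share 2 libraries and were chosen for high signal.

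The replicates disagreed by more than 2 times at 28 of the 592 regions, of which 22 were higher in replicate 2 and 6 in replicate 1. At the muscle attachment gene unc-112 the signal was 87.7 in replicate 1 and 173 in replicate 2, just under that limit. At the histone H4 gene his-37 it was 105 in replicate 1 and 39.8 in replicate 2, and histone genes have near-identical copies, so which copy carried the signal is uncertain.

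For the other 29 regions, 11 had a summit within 100 bp in replicate 1 only and 18 in replicate 2 only. In 24 of these 29 the interval of a candidate peak of the other replicate nevertheless covered the summit, and the nearest summit of that replicate lay between 100 and 277 bp away in all 29. The strongest of the 29 was upstream of gei-4, named after its value was seen, with 141 in replicate 2 and a summit of 121 in replicate 1 at a distance of 152 bp. The region at the myosin heavy chain gene myo-3 had 55.4 in replicate 2 and a summit of 34.7 in replicate 1 just beyond 100 bp. At ceh-20, the gene of a PBC-class homeodomain cofactor, replicate 1 had 62.5 and replicate 2 had a summit of 54.5 at 102 bp. At myo-3 and ceh-20 the limit of 100 bp thus set whether the region counted as found in both replicates. This does not hold for all 29. At tos-1 (194 bp away), calm-1 (157 bp) and lgg-2 (111 bp) the nearest summit of the other replicate was that of a stronger region at the same gene. In 5 of the 29 no interval of the other replicate covered the summit.

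**Figure D1:**
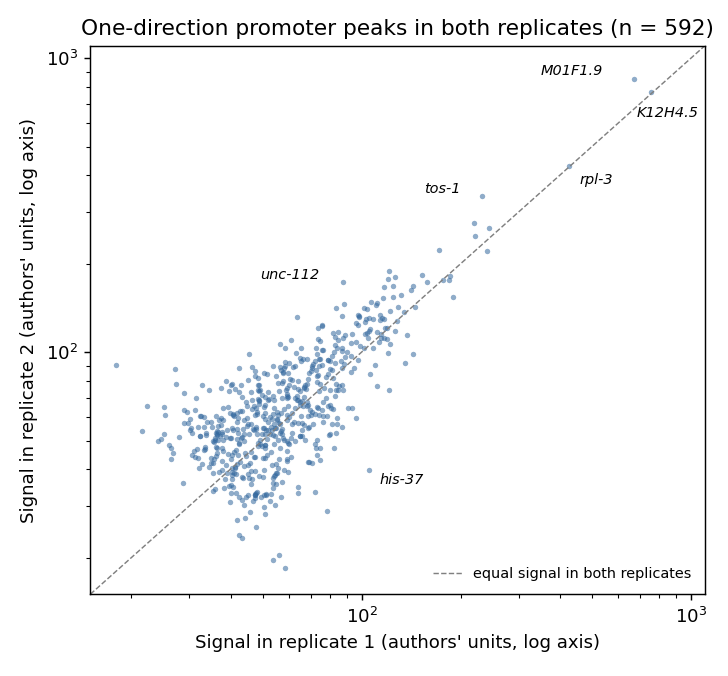
Signal of the 592 one-direction promoter peaks with a candidate summit in both replicates, in replicate 1 (x axis) and replicate 2 (y axis), in the authors' units on log axes, with 1 point per peak and a dashed line at equal signal. M01F1.9, K12H4.5 and rpl-3 stand apart at the top in both replicates, unc-112 lies above the line and his-37 below it, at 105 in replicate 1 and 39.8 in replicate 2.

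One question was whether candidates in promoters of 1 direction pass the threshold as often as those in the most similar classes. Of all 24008 autosomal candidates in the pooled list, 8.09% passed. In one-direction promoters 621 of 5970 candidates passed (10.4%, 9.65 to 11.2), against 320 of 1086 in divergent promoters (29.5%, 26.8 to 32.2; two-sided Fisher's exact test, odds ratio 0.278 with adjusted p = 1.36e-53). Between genes, 444 of 5004 passed (8.87%, 8.12 to 9.69; Fisher's exact test, odds ratio 1.19 with adjusted p = 0.0072). The difference from divergent promoters held under the alternatives run. Those with 1 replicate left out took the 2508 strongest candidates of the other replicate as passed. The difference from intergenic candidates did not pass with promoters of 2000 bp (odds ratio 1.09, adjusted p = 0.236) or without replicate 1 (odds ratio 1.12, adjusted p = 0.081), both in Fisher's exact tests.

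Among peaks that had passed, no difference in height between classes passed the test. The median signal of all autosomal peaks was exceeded by 49.3% of one-direction peaks (45.4 to 53.2), against 53.75% of divergent peaks (48.3 to 59.1; Fisher's exact test, odds ratio 0.836 with adjusted p = 0.291) and 45.9% of intergenic peaks (41.4 to 50.6; odds ratio 1.14, adjusted p = 0.291). Position along the chromosome was also similar, with 63.0% of one-direction peaks in the central 50% of their chromosome (59.1 to 66.7), against 62.2% of divergent peaks (56.8 to 67.3) and 61.5% of intergenic peaks (56.9 to 65.9). Neither difference in position passed Fisher's exact test (adjusted p = 0.831 for both). Per megabase there were 9.22 one-direction peaks on chromosome I, 8.70 on II, 8.71 on III, 6.17 on IV and 5.78 on V.

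Summits lay close to the 5′ end more often than those of candidates that did not pass. The median distance was 291 bp (quartiles 154 and 536 bp), against 397 bp (182 and 693 bp) in the 5349 candidates of the same promoter class that did not pass. Within 250 bp lay 257 of 621 (41.4%, 37.6 to 45.3), against 1805 of 5349 (33.7%, 32.5 to 35.0; two-sided Fisher's exact test, odds ratio 1.39 with p = 0.000178). The share of candidates that passed was highest between 100 and 200 bp upstream (14.8%) and between 200 and 300 bp (13.9%). It was 10.2% in the first 100 bp and 6.45% between 600 and 700 bp. Fisher's exact test did not pass with promoters of 500 bp (odds ratio 1.03, p = 0.743) or for the peaks above the median signal alone (odds ratio 1.20, p = 0.137).

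**Figure D2:**
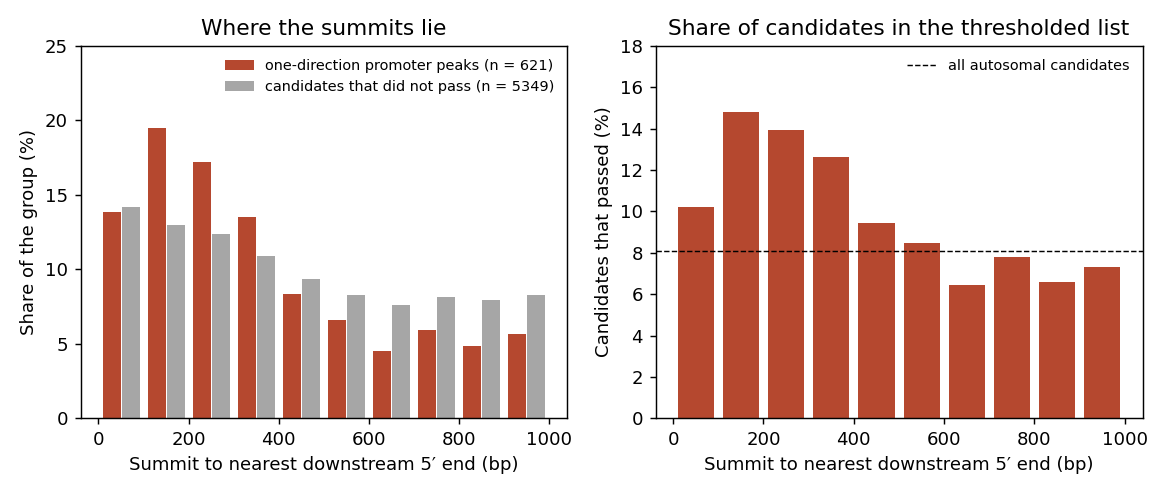
Left, distance from the summit to the nearest downstream 5′ end in bins of 100 bp, as the percentage of the 621 one-direction promoter peaks and of the 5349 candidates that did not pass. Right, the percentage of one-direction candidates that passed in each bin, with a dashed line at the 8.09% of all autosomal candidates, which the bins up to 600 bp exceed and those beyond do not.

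Among the regions, the stronger ones did not lie closer to the 5′ end. The median distance was 324 bp in the strongest 156, 304 bp in the next 155, 275 bp in the 155 after those and 262 bp in the weakest 155, a trend that was not tested. Median signal was 106 in the first 100 bp and 122 in the last, and the 2 strongest regions lay at 984 and 525 bp. At the limits of the definition, Y34D9A.8 had a summit 2 bp from its 5′ end (signal 88.8) and hlh-30, which encodes a TFEB-like regulator of autophagy, one at 999 bp (143). A summit 1001 bp from F48C1.3 (105) fell outside. The summit at fbxl-1 (156) was counted at 210 bp from a snoRNA gene, and one at K05F1.6 (93.4) was left out at 180 bp from a tRNA gene. In all, 55 peaks in one-direction promoters were left out for a structural RNA gene nearby.

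The summits of 454 regions lay between genes (73.1%) and a further 19.2% in introns, with 30 in 5′ UTRs, 9 in 3′ UTRs and 9 in coding sequence. For 120 regions the summit was inside the gene it was assigned to, upstream of an internal 5′ end of that gene, and 98 of these were intronic. The strongest intronic ones of this kind were at nurf-1 (283), which encodes a subunit of a chromatin remodelling complex, and drap-1 (279.97), which encodes a TATA-binding protein corepressor. The median signal of regions inside their own gene was 116.5, against 113.7 for the others. The region at cox-5B (307) lay in a 5′ UTR, upstream of an internal 5′ end.

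Behind the summit, away from the gene served, the next gene lay on the same strand for 342 regions (55.1%) and on the opposite strand for 279. Where that neighbour did not cover the summit, it was a median of 840.5 bp away on the same strand and 3234 bp away on the opposite strand. Opposite-strand neighbours began at 1006 bp, since the definition excludes their 5′ ends at shorter range. The nearest 5′ end was the most upstream one of its gene for 502 regions (80.8%), and 538 transcripts (86.6%) had an annotated 5′ UTR. Genes on the plus strand were served by 307 regions (49.4%).

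The 621 regions merged into 592 stretches of DNA and lay upstream of 600 genes, with 596 regions serving 1 gene and 25 serving 2. Of the genes taken as nearest, 40 had 2 regions or more, whose outer summits were a median of 206 bp apart. The highest count was 3, reached at gsa-1, lgg-2, nurf-1 and miz-1. At nurf-1 the regions had 145 and 143, 65.1 and 51.9, and 33.3 and 46.5 in replicates 1 and 2, at 58, 282 and 382 bp from their nearest 5′ ends. At lgg-2, which encodes an Atg8 family protein of autophagy, the regions had pooled signals of 194, 101.2 and 79.5. Members at 1 gene share a promoter or a transcription unit and are not independent of each other.

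Base composition changed at the summit. The windows of 50 bp to each side of the summit held 48.7% ± 7.71 G and C (SD over 621 regions), against 35.1% ± 8.57 in windows centred 300 bp further upstream and 39.2% ± 10.5 in the 5349 candidates that did not pass. Averaged over all regions in bins of 20 bp, it was 51.1% at 10 bp from the summit toward the gene and 37.1% at 130 bp. Divergent peaks (47.5% ± 7.90) and intergenic peaks (48.0% ± 7.90) differed from the 48.7% by less than 1 SD.

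The GA repeat was the most frequent of the 8 motifs searched. It lay within 50 bp of the summit at 197 regions (31.7%, 28.2 to 35.5), against 42 windows 300 bp further upstream (6.76%; two-sided exact McNemar test, adjusted p = 1.59e-28). Candidates in the same class that did not pass held it in 624 of 5349 windows (11.7%; Fisher's exact test, odds ratio 3.52 with adjusted p = 5.17e-34), and within deciles of GC content the odds ratio was 2.35. Of 25190 windows placed 291 bp upstream of all autosomal coding 5′ ends, 6.37% held it. Among peaks that passed, the repeat was at 16.25% of 320 divergent peaks (Fisher's exact test, odds ratio 2.39 for one-direction over divergent with adjusted p = 6.74e-07), 41.4% of 444 intergenic peaks (odds ratio 0.657, adjusted p = 0.00179) and 32.5% of 326 intronic peaks (odds ratio 0.964, adjusted p = 0.826), tests chosen after the data were seen. One-direction peaks thus held the repeat more often than divergent peaks and less often than intergenic ones.

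Counting intervals of the repeat's share overlapped between strong and weak regions. It was in 34.6% of the strongest 156 regions (27.6 to 42.4), 32.3% of the next 155, 29.0% of the 155 after those and 31.0% of the weakest 155 (24.2 to 38.6). By distance it was lowest between 200 and 300 bp upstream (19.6% of 107 regions) and highest between 800 and 900 bp (46.7% of 30).

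The repeat had an orientation relative to the gene. Of 187 regions with the repeat in 1 orientation only, 131 had the pyrimidine run TCTCTC on the strand of the gene and 56 the purine run GAGAGA (29.9%, two-sided exact binomial test, adjusted p = 2.5e-07). The direction was the same for genes on the plus strand (64 against 27) and on the minus strand (67 against 29), within 250 bp of the 5′ end (53 against 20) and beyond it (78 against 36). The pyrimidine run thus made up 70.1% of one-orientation windows at the one-direction peaks, against 65.8% (394 of 599) at candidates that did not pass (Fisher's exact test, odds ratio 1.22 with p = 0.287, chosen after the data were seen). The orientation was present in both sets and was not shown to differ between them.

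**Figure D3:**
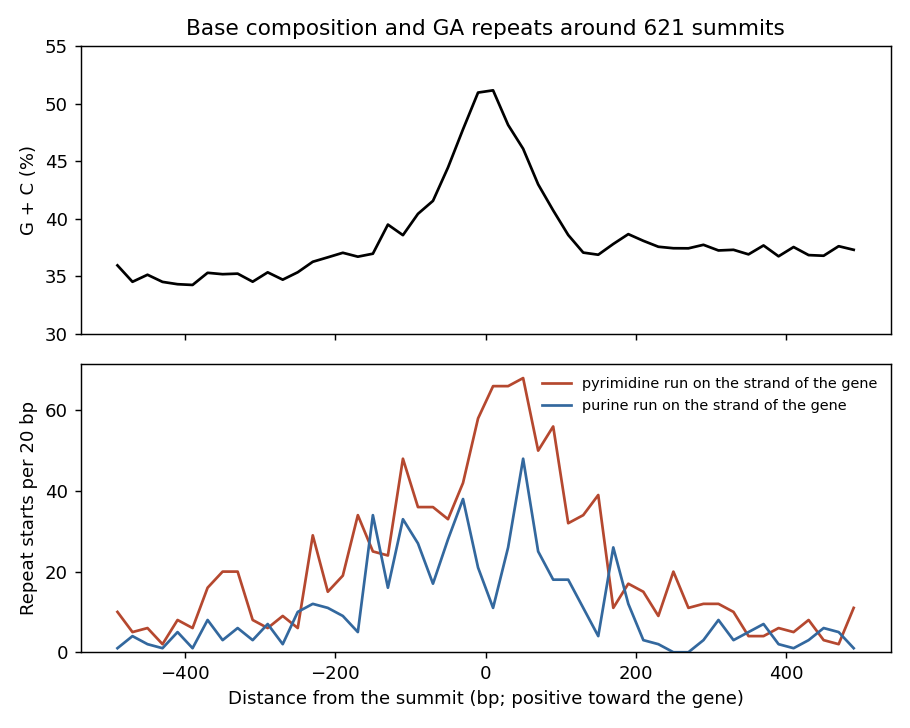
Top, mean percentage of G and C in bins of 20 bp around the 621 summits, read on the strand of the gene so that positive distances lie toward it. Bottom, number of GA repeat starts per 20 bp, with pyrimidine runs and purine runs on the strand of the gene drawn separately. Pyrimidine runs peak within 60 bp on the side of the gene at 66 to 68 starts per bin, and purine runs reach 48.

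The sine oculis core was not more frequent at the summits. It was in 18 of 621 windows (2.90%, 1.84 to 4.54), against 23 upstream windows (3.70%; exact McNemar test, adjusted p = 0.697) and 2.60% of candidates that did not pass (Fisher's exact test, odds ratio 1.12 with adjusted p = 0.798). All promoter windows held it at 2.96%, and it stood 8 times in each orientation where only 1 was present. By strength it was in 2.56% of the strongest 156 regions, 3.87% of the next 155, 3.23% of the 155 after those and 1.94% of the weakest 155. Divergent peaks had it in 1.25%, intergenic peaks in 5.18% and intronic peaks in 4.91% of windows. At rpl-35, the strongest region with the core, the signal was 222 in replicate 1 and 247 in replicate 2. At vig-1 it was 128 and 127, at F28F9.2 126 and 118, and at F42H10.6 82.7 and 100.3 in replicates 1 and 2.

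Other motifs of known factors were rare. The E-box CAGCTG, bound by bHLH factors of muscle type, was in 26 windows (4.19%), against 8 upstream windows (1.29%; exact McNemar test, adjusted p = 0.00587), with the strongest at Y54G11A.2 (219) and the autophagy gene atg-18 (201). Against candidates that did not pass (2.56%) its odds ratio of 1.66 missed the threshold (Fisher's exact test, adjusted p = 0.0519), and within deciles of GC content it was 0.961. The difference from upstream windows no longer passed with the flank toward the gene, for the stronger peaks or with windows of 25 bp (exact McNemar tests, adjusted p = 0.129, 0.185 and 0.185). The odds ratio against candidates passed without replicate 1, without replicate 2 and with windows of 100 bp (Fisher's exact tests, adjusted p = 0.0474, 0.0407 and 0.0154). The MEF3-type site TCAGGTT (6 windows, 0.966%), the MYC-type E-box CACGTG (17, 2.74%) and the forkhead core TGTTTAC (9, 1.45%) passed in neither comparison (adjusted p of 0.125 or above in McNemar and Fisher's exact tests). Among the strongest of these were cfz-2, a Frizzled gene (249), with the MEF3-type site, tos-1 with CACGTG, and F42H10.6 (185) with the forkhead core.

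Sequences rich in A and T were rarer at the summits. The TATA box TATAAA was in 24 windows (3.86%), against 81 upstream windows (13.0%; exact McNemar test, adjusted p = 1.84e-08) and 11.5% of candidates that did not pass (Fisher's exact test, odds ratio 0.311 with adjusted p = 4.17e-10). Within deciles of GC content the odds ratio was 0.926 and did not pass. The splice acceptor sequence TTTCAG was in 26 windows (4.19%), against 111 upstream windows (17.9%; exact McNemar test, adjusted p = 5.31e-14) and 15.05% of candidates that did not pass (Fisher's exact test, odds ratio 0.247 with adjusted p = 4.58e-16). Its odds ratio within deciles was 0.414 and passed. The strongest windows with TATAAA were those of tos-1, cdc-48.1 and drap-1. The part of base composition in the McNemar comparisons was not tested.

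**Figure D4:**
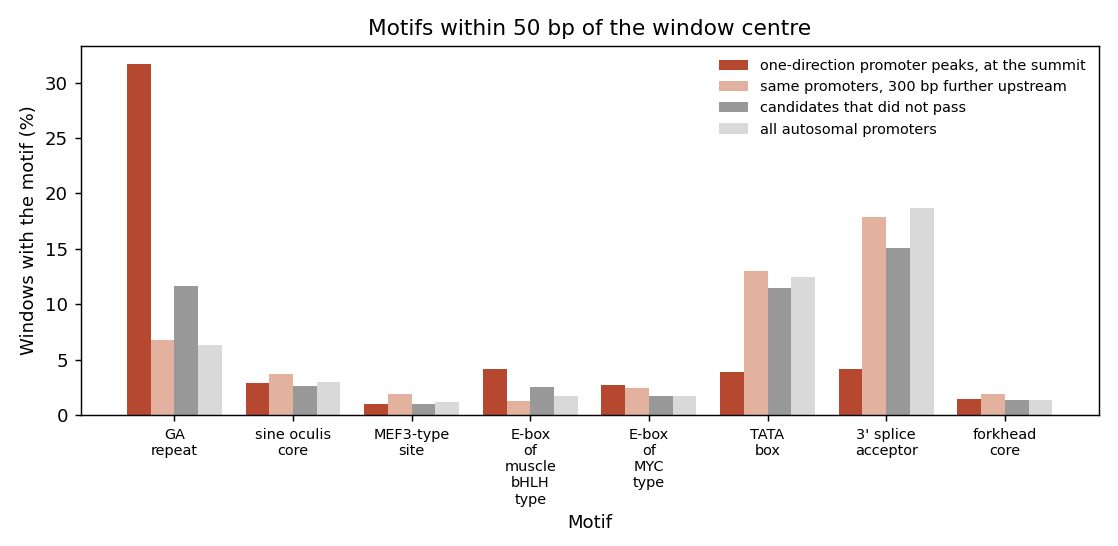
Percentage of windows, 50 bp to each side of their centre, that held each of 8 motifs on either strand, for the 621 one-direction promoter peaks, the same promoters 300 bp further upstream, the 5349 candidates that did not pass and 25190 windows upstream of all autosomal coding 5′ ends. The GA repeat stands at 31.7% at the summits and between 6.37% and 11.7% elsewhere, and the TATA box and the splice acceptor sequence are lowest at the summits.

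All sequences of 6 letters were also compared, read on the strand of the gene. Of all 6-mers, 385 were higher at the summit than upstream (9.4%) and 313 lower (7.64%; exact McNemar tests, adjusted p under 0.05). Of the higher ones 294 had at least 4 G or C, and of the lower ones 304 had at most 2. Of the higher ones, those with the lowest p were TCTCTC, in 22.7% of summit windows against 4.03% of upstream windows, CTCTCT (17.4% against 2.90%), CGTCTC (14.98% against 1.93%), CTCCTC (11.1% against 1.29%) and GTCTCT (13.8% against 2.09%). Of the lower ones these were AAAATT, in 7.09% of summit windows against 26.4% of upstream windows, and ATTTTT (12.6% against 32.9%). Of 2016 pairs of a 6-mer and its reverse complement, 105 had a preferred strand (5.21%; exact binomial tests, adjusted p under 0.05). At their head were TTCTCT, on the strand of the gene alone in 111 windows against 35 for AGAGAA, and CTCTCC, with 83 against 23 for GGAGAG.

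Of the 6-mers higher at the summit, TGCGTC (11.4% against 1.45%) and several that overlap it spell CTGCGTCTC, a sequence put together after their values were seen and therefore given with no test. It was in 62 windows at the summits (9.98%), against 3 windows upstream (0.483%), 158 windows of candidates that did not pass (2.95%) and 0.881% of all promoter windows. It stood on the strand of the gene alone in 40 regions and on the other strand alone in 21. The 3 strongest regions with it on chromosomes II to V are shown with the sequence in capitals, here as its reverse complement GAGACGCAG in all of them. They lie at nurf-1, drap-1 and lin-66. The window of nurf-1 and that of lin-66 also hold a GA repeat.
nurf-1, chrII:14405324-14405424, plus strand: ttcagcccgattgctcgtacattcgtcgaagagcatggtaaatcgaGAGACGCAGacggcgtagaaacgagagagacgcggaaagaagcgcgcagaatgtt
drap-1, chrV:9731155-9731255, plus strand: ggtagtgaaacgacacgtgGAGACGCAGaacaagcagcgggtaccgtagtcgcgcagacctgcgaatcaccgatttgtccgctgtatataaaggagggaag
lin-66, chrIV:13887604-13887704, plus strand: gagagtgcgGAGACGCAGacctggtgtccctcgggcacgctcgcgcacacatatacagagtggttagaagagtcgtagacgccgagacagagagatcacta

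Genes downstream of the regions were read against 22 gene lists, by counts only. Of 17242 autosomal protein-coding genes, 600 lay downstream of a region (3.48%). A summit within 1000 bp upstream of 5′ ends on both strands counted as a divergent peak, so the count of genes with a divergent peak is given beside that with a region. The share of all autosomal genes with a divergent peak was not computed, so the divergent counts have no background to be read against. Over all autosomal genes, 3478 (20.2%) had a coding 5′ end on the opposite strand within 1000 bp upstream of their own most upstream one, and 567 of the 600 were among the other 13764.

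Genes of body wall muscle had 12 of 24 autosomal members downstream of a region (50%, 31.4 to 68.6) and none downstream of a divergent peak. Only 1 of the 24 stood head to head, with an opposite-strand coding 5′ end within 1000 bp upstream of its own. Of the 23 others 12 (52.2%) had a region, against 4.12% of all autosomal genes not standing head to head. The strongest of the 12 was unc-112, which encodes the kindlin of muscle attachments, with 87.7 in replicate 1 and 173 in replicate 2 at 421 bp. The cofilin gene unc-60 followed, with 97.9 in replicate 1 and 132 in replicate 2 at 413 bp, a region it shares with F53E2.2. The actin gene act-1 had 57.7 and 85.4 at 511 bp, and actin genes have near-identical copies. Further members were pat-4 (129), which encodes integrin-linked kinase, the myosin genes mlc-3 (126), unc-54 (126) and myo-3 (89.6), the paramyosin gene unc-15 (95.1), the obscurin gene unc-89 (91.9), the titin-like gene ttn-1 (82.7), the tropomyosin gene lev-11 (82.1) and the integrin gene pat-3 (82.1). The list thus held thick filament, thin filament and attachment genes. Apart from the first 3 their signals were 129 or below.

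Cytosolic ribosomal protein genes had 16 of 81 members downstream of a one-direction peak (19.8%, 12.5 to 29.7) and 34 downstream of a divergent one (42.0%). Of the 81 genes 49 stood head to head with another coding gene, and of the 32 others 16 (50%) had a region. The strongest were rpl-3 (856), rpl-35 (467), rps-24 (326) and rps-28 (310.1), and 9 of the 16 lay below the median of all regions, 114. Their distances ran from 124 bp (rpl-24.2) to 478 bp (rps-11). Translation factors had 4 of 36, namely eif-3.B, eif-3.I and eif-3.C of initiation factor 3, with 191, 142 and 135, and ifg-1 of the cap-binding complex (97.5). No aminoacyl-tRNA synthetase gene of 32 had a region, while 3 had a divergent peak. Mitochondrial ribosomal protein genes had 3 of 70, close to the share of all genes, led by mrpl-15 (156).

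Other housekeeping lists had shares from 3.95% to 15.4%, against 3.48% of all autosomal genes. The 95% Wilson intervals of nuclear pore and transport genes (2.58 to 19.9), splicing factors (1.58 to 18.6) and histone genes (1.35 to 10.97) held that share. The intervals of the chaperone, vacuolar, proteasome, and actin and tubulin lists began above it. Chaperone genes had 5 of 55, led by hsp-1 (387) and the J-domain genes dnj-20 (222) and dnj-19 (187), and 17 of them had a divergent peak. Genes of the vacuolar ATPase, Rab proteins and vacuolar sorting had 9 of 62 in each kind of promoter. All 3 genes of the ESCRT-II complex had a region, vps-25 (174 at 40 bp), vps-22 (117 at 618 bp) and vps-36 (108 at 951 bp). This complex was picked out of those 62 genes after their values were seen and was not a list of its own. Its count is therefore given without a comparison. The vps-22 region lay nearer to another gene, C27F2.9, at 67 bp. Proteasome and ubiquitin conjugation genes had 7 of 53, including ubc-3 (156), pas-1 (114) and rpt-1 (106). The pas-1 region lay 810 bp from pas-1 and 124 bp from rpoa-12. Nuclear pore and transport genes had 3 of 40, led by npp-8 (222), splicing factors 2 of 35 (rsp-6 and rsp-8), actin and tubulin genes 2 of 13 (act-1 and tba-2), and histone genes 3 of 76 (hil-7, his-37 and his-72, a histone H3.3 gene).

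Genes expressed throughout the nervous system had 7 of 28 members downstream of a region (25%, 12.7 to 43.4) and 2 downstream of a divergent peak. The strongest were maco-1, the macoilin gene (79.0 in replicate 1 and 84.2 in replicate 2), unc-16, which encodes a JIP3-type adaptor of axonal transport (67.6 and 74.99), and the ankyrin gene unc-44 (70.4 and 61.1). The others were rgef-1 (101.4), the active zone genes cla-1 (94.1) and elks-1 (92.6), and unc-11 (89.2), the AP180 gene of synaptic vesicle recycling. All 7 lay between 89.2 and 165 in the pooled list, and unc-16, unc-44 and maco-1 differed little between replicates.

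CEH-34 is known to act in the pharynx, and the lists for that tissue and for the sine oculis family were small. None of 18 autosomal pharyngeal neuron identity genes had a region, which leaves shares up to 17.6% possible (95% Wilson interval), a range that holds the 3.48% of all autosomal genes. Pharyngeal muscle and organ identity was represented by 2 of 14 autosomal genes (14.3%, 4.01 to 39.9), the NK-2 class homeobox gene ceh-22, at 911 bp with 68.0 in replicate 1 and 67.8 in replicate 2, and the T-box gene tbx-2, with 56.5 and 47.1. Among the sine oculis family and its cofactors the only one of 6 (16.7%, 3.01 to 56.4) was eya-1, which encodes the Eyes absent partner, at 6 bp with 44.4 in replicate 1 and 27.2 in replicate 2. The interval of this list also holds the 3.48% of all autosomal genes. By signal the eya-1 region ranked 584 of the 621 regions. No one-direction peak was assigned to ceh-34 itself or to unc-119.

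Among regulatory gene families, homeobox genes named ceh had 3 of 45 (ceh-22, ceh-20 and ceh-100), and genes of bHLH, T-box, forkhead, Sox and GATA factors 3 of 45 (hlh-30, hlh-11 and tbx-2). Each of these shares was 6.67% (95% Wilson interval 2.29 to 17.9), a range that holds the 3.48% of all genes. Of 246 nuclear hormone receptor genes 5 had a region (2.03%), the strongest being nhr-49 (143), a regulator of fat metabolism, nhr-66 (135) and nhr-64 (114). Neuropeptide and insulin-like genes had 1 of 106, nlp-68 (101.04), and collagen genes none of 129, which leaves shares up to 2.89% possible. Chemoreceptor genes had 2 of 1143 (0.175%), srh-2 (89.1) and srh-33 (77.1). The shares of these last 4 families were below that of all genes. For nuclear hormone receptor genes (95% Wilson interval 0.871 to 4.67) and neuropeptide and insulin-like genes (0.167 to 5.15) the interval holds the 3.48% of all genes.

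**Figure D5:**
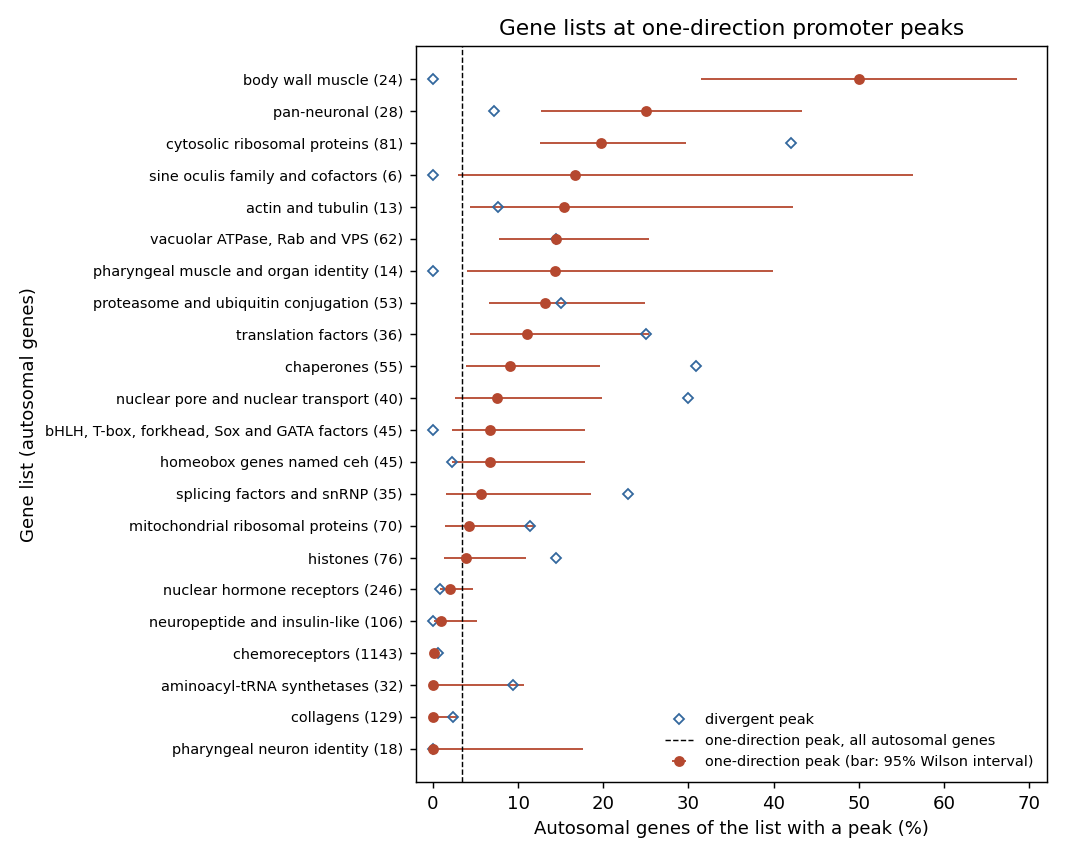
Percentage of the autosomal genes of each of 22 lists that lie downstream of a one-direction promoter peak (circles, with 95% Wilson intervals) or a divergent promoter peak (open diamonds), with the number of autosomal genes in brackets and a dashed line at 3.48%, the share of all autosomal genes with a one-direction peak. Body wall muscle is highest at 50% with no divergent peak, and ribosomal protein genes have 19.8% with a one-direction peak and 42.0% with a divergent one. Head to head with another coding gene stand 1 of the 24 muscle genes and 49 of the 81 ribosomal protein genes. Of the genes not head to head, 52.2% of the muscle list and 50% of the ribosomal list have a one-direction peak.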

How the data were processed

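The authors deposited peak lists on ce11 with a signal per peak, the caller's own height, and a summit offset, another whole number in bp that locates the summit. Per the file lists deposited with them, candidates were called for each replicate and on both together, with a control, and the thresholded list was derived by the irreproducible discovery rate. No aligner or peak caller is named here, as neither was given in the sources used here. Depth is unknown, and intervals cover counting error only.

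The 2508 thresholded peaks, 29417 pooled candidates and the candidates of replicates 1 (21725) and 2 (23509) were joined to Ensembl release 115 and the RefSeq sequence of WBcel235 with Python 3.11.15, pandas 2.3.3, scipy 1.17.1 and statsmodels 0.14.6. A promoter is the 1000 bp upstream of a 5′ end. Summits within 100 bp counted as shared. Motif searches covered 50 bp to each side of the summit and both strands. Fisher's exact, exact McNemar and exact binomial tests were two-sided, as were Cochran-Mantel-Haenszel tests over deciles of GC content, with Benjamini-Hochberg adjustment within each family and a threshold of 0.05. In simulated windows, all drawn with the base composition of the summits, the 6-mer scan recovered 19 of 20 planted 6-mers, with 1 false call. Sequences overlapping a planted 6-mer were left out of the false calls. A difference in base composition between summit and upstream windows was not simulated, so calls that arise from it were not assessed.

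Genes named are those at the 20 strongest regions in both replicates, up to 3 strongest of each list or motif, eya-1, and those at the limits of the definition. Further members of the muscle, neuron, ribosomal and other lists, gei-4, nurf-1, lin-66 and lgg-2 were added after their values were seen. The members, lists and tests were chosen with earlier results of these data known. The ce10 lists were not used.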

Additional observations from a re-analysis of the deposited data

How the results depend on the processing

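Choices were changed 1 at a time, giving 279 alternative values of 33 results under 16 settings. Leaving out 1 replicate also changed the rule for passing. The candidates of the remaining replicate were used, and its 2508 strongest counted as passed in place of the authors' threshold. The lower pass rate than in divergent promoters, the GA repeat against upstream windows and other candidates, and its orientation kept their direction and side of the threshold in every setting run. One-direction peaks were 39.1% of autosomal peaks with promoters of 2000 bp and 27.5% with 500 bp. The odds ratio of passing, against intergenic candidates, was 1.09 with 2000 bp and ranged from 1.12 to 1.23 with 1 replicate left out; the call was lost without replicate 1. For summits within 250 bp it was 1.03 with promoters of 500 bp and 1.20 for the stronger peaks, both below the threshold.

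Motifs higher at the summit than upstream numbered 1 of 8, in place of 2, with the flank toward the gene, for the stronger peaks and with windows of 25 bp, CAGCTG being the one lost. Motifs higher than in other candidates numbered 2, in place of 1, with windows of 100 bp and without either replicate (2 to 2), CAGCTG being the one gained, and those lower numbered 1, in place of 2, within deciles of GC content. With windows of 25 bp, 152 6-mers were higher and 141 lower.

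Results that did not pass changed direction, which carries no call. Odds ratios for height against divergent peaks were 1.01 with promoters of 500 bp. For the central 50% they were, against divergent peaks, 0.957 with a narrower central part, 0.931 with 2000 bp, 0.965 for the stronger peaks and 0.920 to 1.33 with 1 replicate left out, and 0.994 against intergenic peaks with 500 bp. For support in both replicates they were 5.87 against divergent peaks with summits within 200 bp, and against intergenic peaks 1.05 with 500 bp, 1.52 for the stronger peaks, 1.00 for merged intervals, 1.40 within 200 bp and 1.48 within 50 bp. Only the last passed (Fisher's exact test, adjusted p = 0.0146), and the cause was not tested.

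Differences from upstream windows, in percentage points, reversed for CACGTG (-0.327 for the stronger peaks, -0.483 to 0 with 1 replicate left out), TCAGGTT (0.161 with the flank toward the gene and with 25 bp), TGATAC (0.395 with 2000 bp, 0.654 for the stronger peaks, 0.161 with 25 bp) and TGTTTAC (0.483 with the flank toward the gene, 0.161 with 100 bp, -0.974 to 0.322 with 1 replicate left out). Odds ratios against other candidates reversed for CAGCTG (0.961 within GC deciles), TCAGGTT (1.10 with 2000 bp, 1.79 with 25 bp, 1.00 to 1.28 with 1 replicate left out), TGATAC (0.962 with 100 bp), CACGTG (0.959 to 1.12 with 1 replicate left out) and TGTTTAC (0.898 with 500 bp, 0.736 for the stronger peaks, 0.452 with 25 bp). The share above the median signal has no value for the stronger peaks, and support in both replicates none with 1 replicate left out. No paired analysis was possible because there was 1 group. Read depth was not analysed, and the 2 libraries allow no estimate of variation between animals.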
